A study of Rattus norvegicus with 16 samples.

Results

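The middle part of the intestine of suckling rats given obestatin was compared with that of rats given saline on 8 of the 16 microarrays of the series, 4 of each group, taken by their titles. The tissue came from Wistar rats, whose parents were of the Wistar Han stock. Rats of the OH group received obestatin at 250 nmol/kg BW into the stomach 2 times a day, starting on day 14 of life and ending by day 21. Rats of the C group received saline on the same days. By the methods the pups were killed on day 21, soon after the morning dose of saline or obestatin. On every array the tissue RNA of 1 rat was labelled with Cy5 and a common reference with Cy3, and the dyes were not swapped. The reference was a pool of equal RNA amounts from all rats of the study, and the methods do not name its tissues. The measure was the log2 ratio of Cy5 to Cy3, and Cy5 and Cy3 were also taken alone, each on the log2 scale relative to the 75th percentile of its own array. Since the same pool was on every array, a difference in Cy3 is between slides, although the dye normalization within each array had already mixed the channels. Arrays of the stomach, 4 of each group, entered the fit and are compared only where stated. The tissue was whole gut wall, so fewer cells of a type and less RNA per cell cannot be told apart.

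Obestatin is cut from the same precursor as the appetite hormone ghrelin, and the receptors GPR39 and GLP1R have been discussed as its targets. The small intestine renews its lining from dividing crypt cells, and the enterocytes that leave the crypts carry a brush border of microvilli with lactase, maltase and peptidases, absorb fat and pack it into lipoproteins. In the rat the lining changes around weaning, when lactase declines and enzymes for solid food appear.

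Each group lay on 1 slide of its own, and the OH slides and the C slides were scanned on different days, so the effects of treatment, of slide and of scan day cannot be told apart. The median raw Cy3 signal was between 188 and 195 scanner units on the C arrays and between 355 and 399 on the OH arrays, while the median raw Cy5 signal was between 178 and 219 and between 163 and 272, respectively. Within a group, pairs of arrays had a Pearson's r of the log2 ratio of 0.77 to 0.89 in C and 0.77 to 0.87 in OH, taken across probes, which are not independent. The tissue label held: the mean log2 ratio of 13 enterocyte genes was between -0.53 and 1.22 on the 8 intestine arrays and -3.17 in C stomach, and that of 12 genes of the stomach mucosa was between -4.36 and -3.66 against 2.55.

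The probes of the array are oligonucleotides of 60 bases placed by the array design on rn4. No exon or UTR annotation of that build was used here. The following 6 probes are printed 5′ to 3′, all in lower case because no stretch of them stands apart. Kiaa1671, Foxo4 and Chmp4bl1 had the largest differences of the log2 ratio among the probes that passed as higher in OH. Foxo4 was dim in Cy5, and Hp was higher in Cy5 as well as in the ratio. Erbb2 and Diaph3 are genes that passed at the probe nearest the 5′ end and not at the probe nearest the 3′ end.
Kiaa1671: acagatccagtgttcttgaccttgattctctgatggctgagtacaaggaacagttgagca
Foxo4: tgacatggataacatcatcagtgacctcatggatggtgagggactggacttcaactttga
Chmp4bl1: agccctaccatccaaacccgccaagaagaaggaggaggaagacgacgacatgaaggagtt
Hp: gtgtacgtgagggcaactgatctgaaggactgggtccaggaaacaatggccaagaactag
Erbb2: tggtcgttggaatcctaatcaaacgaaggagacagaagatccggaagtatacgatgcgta
Diaph3: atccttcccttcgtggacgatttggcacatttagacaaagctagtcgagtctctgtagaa
They lie at chr12:44460418-44460477 on the plus strand (Kiaa1671, listed as RGD1306556 by the array), chrX:89336984-89337043 on the plus strand (Foxo4), chr4_random:563222-563281 on the minus strand (Chmp4bl1), chr19:39443156-39443215 on the minus strand (Hp), chr10:87238370-87238429 on the plus strand (Erbb2) and chr15:68969867-68986357 on the minus strand (Diaph3). The Diaph3 span is longer than the probe, which thus joins separate stretches of the genome.

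Of 21192 probes tested, 78 passed between OH and C in the log2 ratio at an adjusted p of 0.05 in limma (0.368%), 71 higher in OH (0.335%) and 7 lower (0.033%). They stood for 65 gene symbols, among them Foxo4 (a forkhead transcription factor), Atg13 (a part of the kinase complex that starts autophagy), Net1 (an exchange factor for RhoA), Erbb2 (a receptor tyrosine kinase), Hp (haptoglobin) and Igfbp1 (a carrier of insulin-like growth factors). Taken by channel, most of the 71 higher probes passed in Cy3 and not in Cy5. Their median difference was 0.89 in the log2 ratio, -0.07 in Cy5 and -0.89 in Cy3. Cy3 was lower on the OH slide at 70 of the 71 and passed at 69, while Cy5 was higher in OH at 25 and lower at 46 and passed as higher at 2. Of all 78 probes, 71 passed in Cy3 in the direction opposite to the ratio (0.335% of the probes tested). Cy5 alone also compares slides, so where it did not pass, equal rat RNA is not shown.

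These shares are read against the probes at large. Without adjustment 2213 probes passed in the ratio (10.4%), 1386 higher (6.54%) and 827 lower (3.9%). In Cy3, the same pool on every slide, 12867 probes passed (60.7%), 5550 higher (26.2%) and 7317 lower (34.5%). All 4 OH arrays lay above all 4 C arrays in the ratio at 788 probes (3.72%) and below them at 453 (2.14%), and all 78 probes that passed were among these. When only the 8 intestine arrays were fitted, 1 probe passed in place of 78, and leaving out any single intestine array left 12 (without C replicate 3) to 42.

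**Figure D1:**
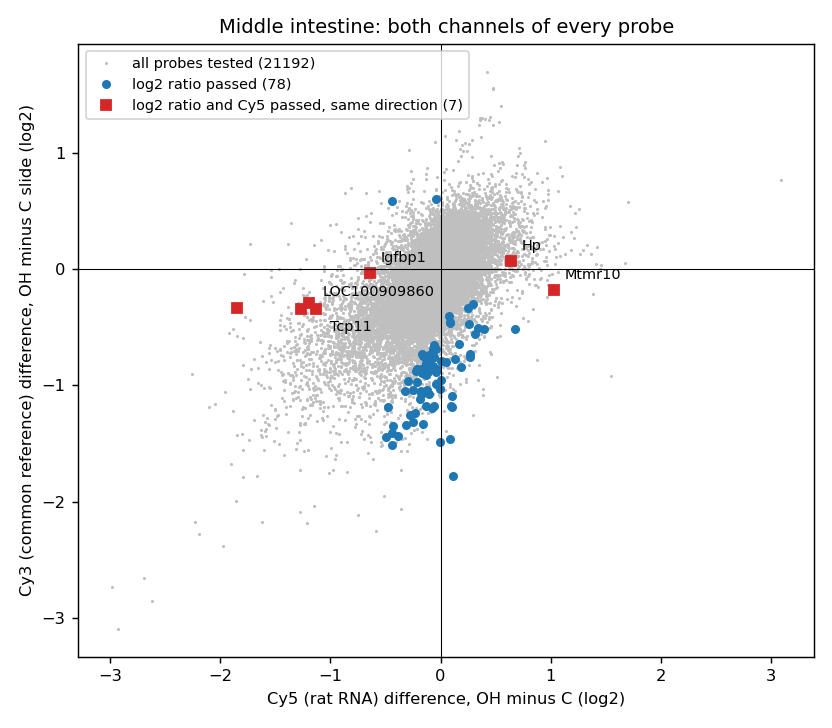
Difference between OH and C in Cy5 (rat RNA, x axis) and in Cy3 (common reference, y axis), both on the log2 scale, for the 21192 probes tested in middle intestine; each point is a probe. Most of the 78 probes that passed in the log2 ratio (blue) lie near 0 in Cy5 and below 0 in Cy3, and 7 probes (red squares) passed in Cy5 in the same direction.

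Of the probes that passed as higher in OH, those with the largest differences of the log2 ratio were of this kind. Kiaa1671 had a log2 ratio of -0.64, -0.13, -0.52 and -0.42 on the C arrays and of 1.16, 2.05, 1.31 and 1.41 on the OH arrays, a difference of 1.91 (SE 0.33, adjusted p = 0.032). The groups lay far apart in the ratio, yet its Cy5 level was -4.83, -4.23, -4.68 and -4.34 in C and -5.01, -3.82, -4.44 and -4.36 in OH and overlapped (difference 0.11). Its Cy3 level was between -4.18 and -3.93 on the C slide and between -6.14 and -5.71 on the OH slide (difference -1.78). Net1 showed the same with little spread: the ratio was -0.62, -0.78, -0.64 and -0.53 in C and 0.33, 0.73, 0.78 and 0.37 in OH (difference 1.19, SE 0.15, adjusted p = 0.0076), with differences of -0.16 in Cy5 and -1.33 in Cy3. Thus the OH arrays stood above the C arrays in the ratio of Net1 while its Cy5 levels, between -2.39 and -2.1 in C and between -2.76 and -2.16 in OH, overlapped.

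Chmp4bl1, named for its likeness to a subunit of the ESCRT machinery that pinches membranes, passed at each of its 2 probes. Its ratio at the printed probe was -0.40, -0.64, -0.11 and -0.27 in C and 1.39, 1.38, 0.74 and 1.07 in OH (difference 1.5, SE 0.255, adjusted p = 0.030), with Cy5 differing by -0.00 and Cy3 by -1.49. At the other probe the ratio difference was 1.28 and the Cy3 difference -1.17. Whether these probes also bind RNA of related Chmp4 genes was not tested. Tspyl2, a nuclear protein of the nucleosome assembly family, had a ratio of -0.82, -0.94, -1.42 and -1.05 in C and 0.07, 0.32, 0.06 and 0.56 in OH (difference 1.31, adjusted p = 0.0078; Cy5 0.10, Cy3 -1.19). Atg13 differed by 1.21 in the ratio (Cy5 0.11, Cy3 -1.09), Csnk1g1, a casein kinase, by 1.13 (Cy5 -0.08, Cy3 -1.19) and LOC680951 by 1.13 (Cy5 -0.06, Cy3 -1.18). Cy3 passed for each of these genes and Cy5 for none of them.

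Some probes that passed were dim in Cy5. Foxo4 was well above background in Cy5 on 0 of the 4 C arrays and 2 of the 4 OH arrays. Its ratio was -1.99, -2.09, -1.99 and -1.33 in C and -0.08, -0.14, -0.77 and -0.15 in OH (difference 1.56, SE 0.19, adjusted p = 0.0076), with Cy5 differing by 0.09 and Cy3 by -1.46. Its Cy5 levels overlapped between the groups (adjusted p = 0.95). Helb, a DNA helicase, was above background on 0 and 2 arrays as well, with a ratio difference of 1.20 (Cy5 0.67, adjusted p = 0.20 in Cy5; Cy3 -0.51). Nap1l3, another nucleosome assembly protein, was above background on none of the 8 arrays, so the ratio difference of -1.01 goes with no fold; its Cy3 difference was 0.59.

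At 7 probes the rat RNA channel passed in the same direction as the ratio (0.033% of the probes tested), 2 higher and 5 lower in OH. Hp encodes haptoglobin, a plasma protein that binds free haemoglobin and rises in the acute phase response. Its log2 ratio was -4.64, -4.53, -4.69 and -4.35 in C and -3.96, -4.13, -3.86 and -3.94 in OH, a difference of 0.58 (SE 0.11, adjusted p = 0.0475). Cy5 was 0.63, 0.76, 0.63 and 0.84 in C and 1.36, 1.14, 1.53 and 1.36 in OH (difference 0.64, adjusted p = 0.012), and Cy3 differed by 0.07. All 4 OH rats thus lay above all 4 C rats in the ratio and in Cy5, and the reference was nearly level. In stomach the ratio difference of Hp was 0.24.

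Igfbp1, a binding protein of the insulin-like growth factors that the liver makes on fasting, was lower in OH. The ratio was -1.54, -1.52, -1.33 and -1.62 in C and -2.03, -2.22, -1.96 and -2.19 in OH (difference -0.60, SE 0.12, adjusted p = 0.0498). Cy5 was -1.33, -1.32, -1.08 and -1.35 in C and -1.89, -2.07, -1.74 and -1.95 in OH (difference -0.64, adjusted p = 0.018), and Cy3 differed by -0.03. The groups did not overlap in either measure, and the ratio difference in stomach was -0.47. Hp and Igfbp1 each passed in the ratio in limma under 4 of 15 alternative settings.

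Tcp11, known from sperm, had a ratio of 0.06, 0.26, -0.09 and 0.27 in C and -0.76, -0.71, -0.42 and -0.71 in OH (difference -0.78, SE 0.14, adjusted p = 0.035). Its Cy5 level differed by -1.13 (adjusted p = 0.0073) and its Cy3 level by -0.34 (adjusted p = 0.0083), so the reference was lower on the OH slide as well. LOC100909860 differed by -0.89 in the ratio and -1.20 in Cy5, was above background on 4 C arrays and 1 OH array, and differed by -0.30 in Cy3. Mtmr10, a myotubularin without phosphatase activity, was higher in OH, with a ratio of -0.85, -0.97, -0.92 and -1.30 in C and 0.03, 0.48, -0.14 and 0.50 in OH (difference 1.23, SE 0.19, adjusted p = 0.020; Cy5 1.03, Cy3 -0.18). It was above background in 0 of 4 C arrays and 4 of 4 OH arrays, so its Cy5 difference gives only a bound, 1.23-fold higher. The bound sets the OH mean against a floor on each C array (the dimmest signal that passed the background flag, or the probe's own where higher). For Mtmr10 the floor did not change the C mean (6.347), so 1.23-fold is the plain fold between the group means. The values had normexp background correction (offset 50), loess, and quantile normalization of the mean of both channels. The bound is open to dye bias. The other two were probes without a gene symbol, A_64_P134387 on chromosome 14 and A_64_P136724 on chromosome 13, with ratio differences of -1.50 and -0.91 and Cy5 differences of -1.85 and -1.27. The former was above background on 1 C array and no OH array, so no fold is given for it.

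**Figure D2:**
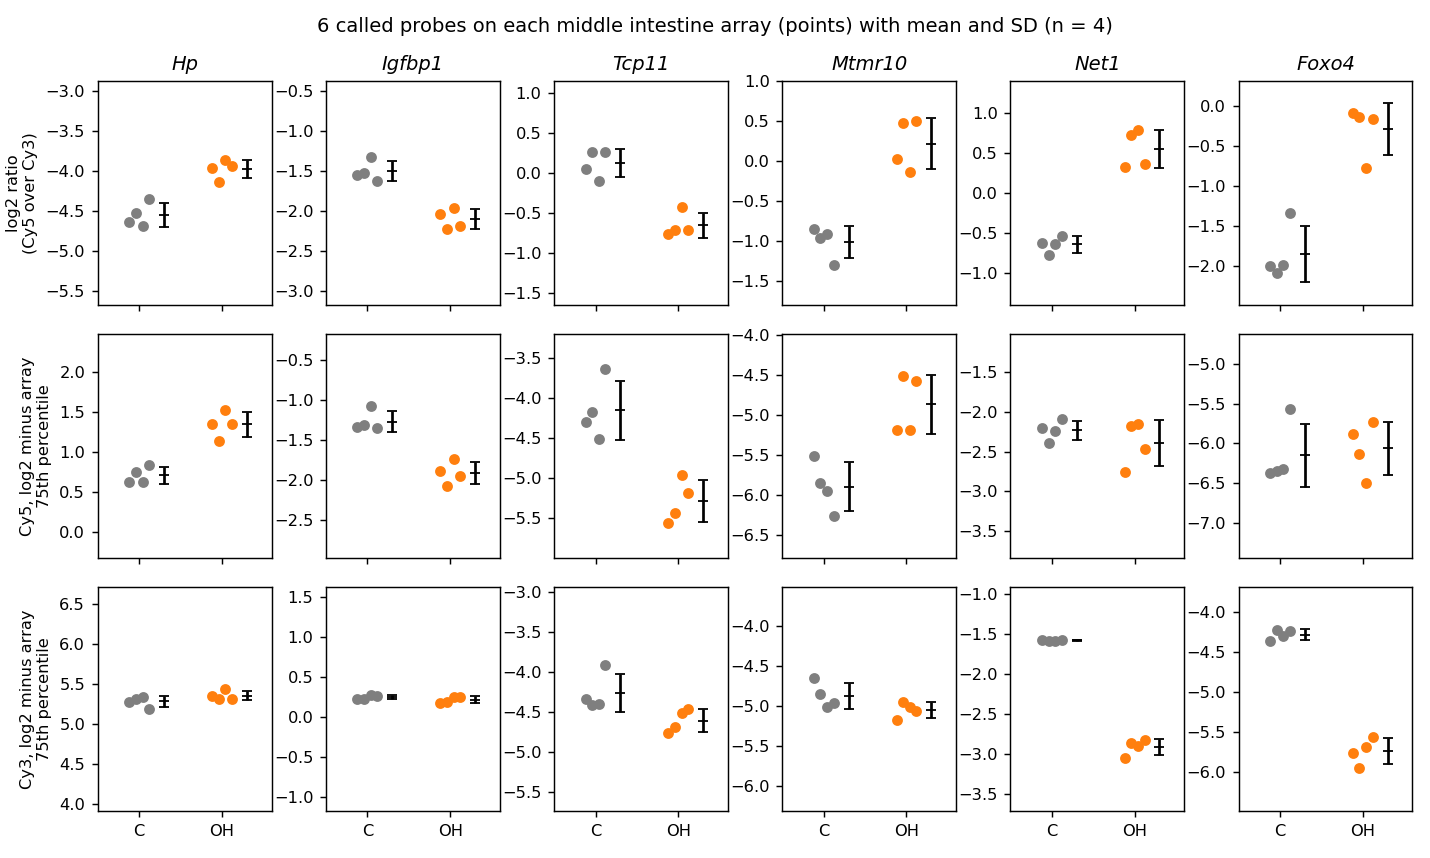
Log2 ratio (top), Cy5 level (middle) and Cy3 level (bottom) of 6 probes that passed in the ratio, on each of the 4 C and 4 OH middle intestine arrays; points are arrays, bars the mean and SD (n = 4), and each panel spans the same number of log2 units. Hp and Igfbp1 separate in Cy5 and stay level in Cy3, while Net1 and Foxo4 overlap in Cy5 and separate in Cy3.

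Many genes have several probes, and the probes of a gene did not move together. Of the 65 genes, 34 had more than 1 probe tested. Besides the probe with the smallest adjusted p of the ratio they had 43 further probes, of which 28 had its direction and 2 passed. Which probe passed went with its place along the gene. In the 2506 genes with at least 2 probes on one strand of one chromosome within 500000 bases, the probe nearest the 5′ end and the probe nearest the 3′ end were compared. In 32 of these genes one of them passed in the ratio: the 5′ probe alone in 29, the 3′ probe alone in 2 (Pikfyve and Reep3), and each of them in 1 (Chmp4bl1). In these 32 genes the Cy3 difference had a median of -0.89 at the 5′ probe and 0.05 at the 3′ probe, and it was lower at the 5′ probe in 30. The Cy5 medians were -0.05 and 0.08, and the ratio medians 0.86 and 0.06. The rule that picked the 32 used the ratio of these probes, so their medians are a description.

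Examples carry the pattern. Foxo4 differed by 1.56 in the ratio at its 5′ probe and by -0.12 at a probe 1315 bases downstream, where Cy3 differed by 0.27. Erbb2 had a ratio of -0.18, -0.06, -0.18 and -0.03 in C and 0.66, 1.03, 0.98 and 0.51 in OH at the printed 5′ probe (difference 0.91, adjusted p = 0.046; Cy3 -1.07), while its 3′ probe, 4364 bases further, differed by 0.28 in the ratio and -0.18 in Cy3. Diaph3, a formin that builds actin filaments, differed by 0.98 at the 5′ probe (Cy3 -1.07) and by 0.03 at the 3′ probe (Cy3 0.07). Sf1, a splicing factor, differed by 0.89 and -0.04, Rarg, a retinoic acid receptor, by 0.79 and 0.06, Ripk1, a kinase of tumour necrosis factor signalling, by 0.71 and 0.30, and Atg13 by 1.21 and 0.06. In each of these 7 genes the 3′ probe did not pass. Pikfyve, a lipid kinase of endosomes, went the other way in the ratio, with 0.71 at the 5′ probe, which did not pass, and 0.87 at the 3′ probe, which did. Its Cy3 difference was still lower at the 5′ probe (-0.92) than at the 3′ probe (-0.80).

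The gradient was not limited to the genes that passed. Over all 2506 genes the Cy3 difference was lower at the 5′ probe than at the 3′ probe in 1850 (73.8%), with medians of -0.18 and 0.08, and on the stomach slides in 1570 (62.7%), with medians of -0.09 and 0.02. In Cy5 it was lower in 1602 (63.9%), with medians of -0.09 and 0.02, and in the ratio, which divides Cy5 by Cy3, it was lower in 840 (33.5%), with medians of 0.10 and -0.03. The Cy3 difference at the 5′ probe grew with the distance between the probes: its median was -0.05 in 496 genes with probes up to 500 bases apart, -0.16 in 767 genes up to 2000 bases, -0.25 in 499 genes up to 5000 bases and -0.32 in 744 genes with a longer distance. When the ratio was fitted with only the 3′ probe of these genes, 3 probes passed, against 82 with only the 5′ probe. RNA quality and labelling were not tested as a source of this gradient.

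**Figure D3:**
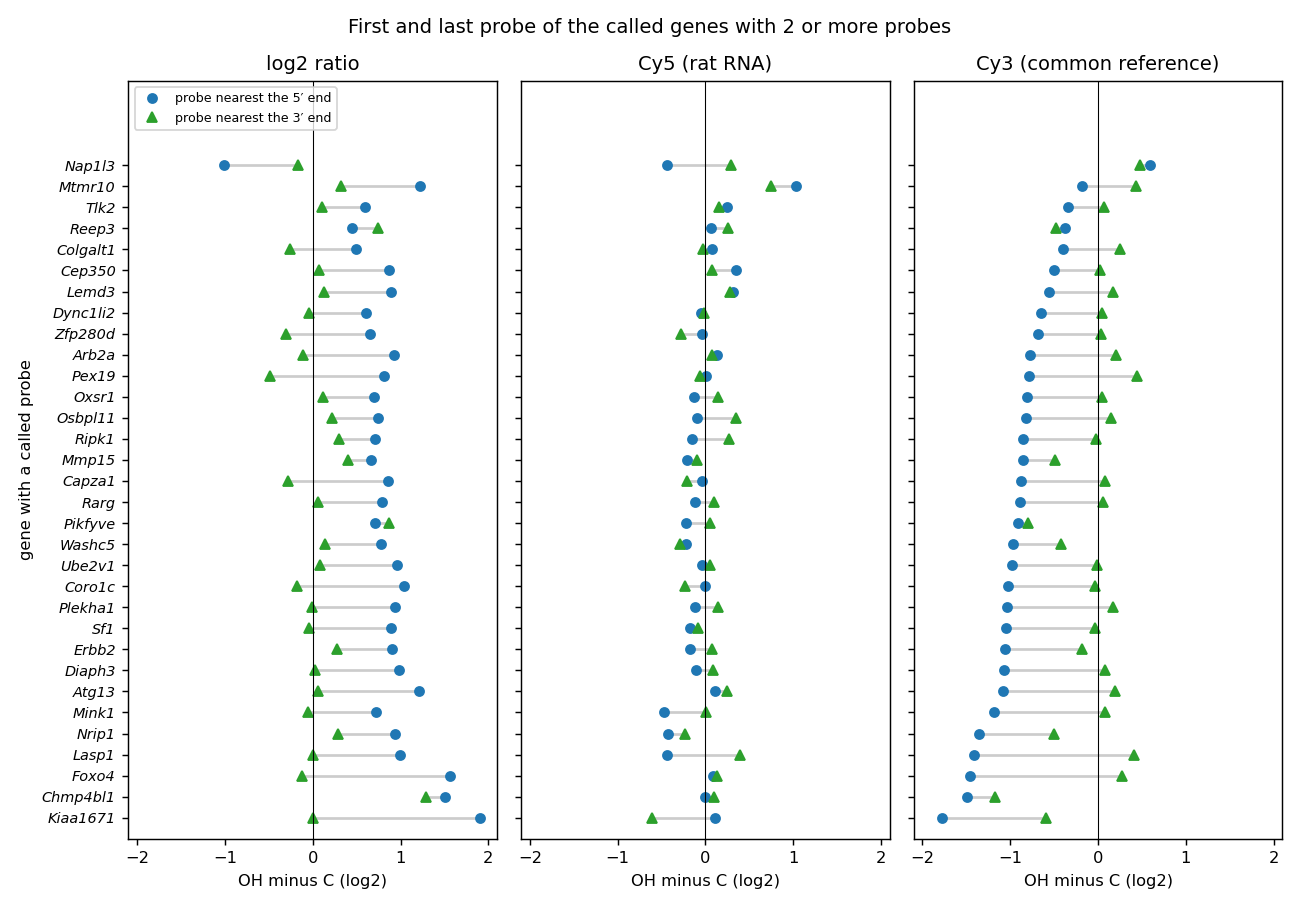
Difference between OH and C (log2) at the probe nearest the 5′ end (circle) and nearest the 3′ end (triangle) of the 32 genes with a probe that passed, in the log2 ratio, in Cy5 and in Cy3, sorted by the Cy3 difference at the 5′ probe. The ends lie close together in Cy5 (medians -0.05 and 0.08) and apart in Cy3 (medians -0.89 and 0.05).

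In Cy5 alone 592 probes passed (2.79%), 29 higher in OH (0.137%) and 563 lower (2.66%), and most of these moved in the reference too. Of the 563 lower probes, Cy3 was lower at 561 and passed at 507, with medians of -0.94 in Cy5, -0.66 in Cy3 and -0.21 in the ratio. Of the 29 higher probes, Cy3 was higher at 28 and passed at 24. The lower probes had a median GC content of 53.3% against 45% for all probes tested. Across the probes, the differences in Cy5 and Cy3 had a Pearson's r of 0.62, where both channels of an array share its slide, scan and dye normalization. Of the 592 probes, 140 also had an unadjusted p under 0.05 in the ratio in the same direction.

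The genes with the largest Cy5 differences were mostly dim. Adam34, a testis metalloprotease relative, had a Cy5 level of -4.45, -4.42, -4.66 and -4.28 in C and -7.63, -7.58, -5.61 and -7.77 in OH, a difference of -2.69 with a Cy3 difference of -2.65 and a ratio difference of -0.03. It was above background on 4 C arrays and 0 OH arrays. Its Cy5 signal was 1.48-fold lower on the OH slide by the same kind of bound. The floor on the OH arrays moved the OH mean only from 6.149 to 6.157. This bound takes Cy5 alone and does not allow for the fall in the reference. The bitter taste receptor Tas2r116 differed by -2.19 in Cy5 and -2.28 in Cy3. Its Cy5 signal was 1.58-fold lower by the bound, where the floor did not change the OH mean (6.325). The keratin Krt78 differed by -1.95 in Cy5 and -1.06 in Cy3 and was above background on 3 C arrays. Neither was above background on any OH array. Mrgpre, a receptor of sensory neurons, was above background on 3 C arrays and 1 OH array and differed by -1.89 in Cy5 and -1.22 in Cy3, and Ston1, an adaptor of endocytosis, by -1.86 and -2.0. All 5 passed in Cy5 and in Cy3, and none passed in the ratio.

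Among the genes higher in Cy5, Med13l was, beside Hp and Mtmr10, one of 5 of the 29 probes that did not pass as higher in Cy3. This subunit of the mediator kinase module had a Cy5 level of -4.76, -4.91, -5.29 and -5.25 in C and -4.35, -4.02, -4.41 and -4.11 in OH (difference 0.83, adjusted p = 0.0067), with a Cy3 difference of 0.10 that did not pass and a ratio difference of 0.75 (adjusted p = 0.061). Mmp28, a matrix metalloprotease of epithelia, had a Cy5 level of -2.54, -2.56, -2.77 and -2.93 in C and -1.64, -1.23, -2.29 and -1.72 in OH (difference 0.98, adjusted p = 0.0155), but Cy3 differed by 0.65 and the ratio by 0.35. Lin9, of the complex that drives mitotic genes, and Tubgcp6, of the gamma-tubulin ring, differed by 0.95 and 0.85 in Cy5, by 0.54 and 0.60 in Cy3, and by 0.42 and 0.26 in the ratio. Of these 4 genes only Med13l did not pass in Cy3.

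Of 17 genes that the study followed by other assays or that encode candidate receptors, 14 were tested, and none passed in the ratio or in Cy5. The sucrase gene Sis was not found under that symbol on the array. Map2k3, a kinase above p38, came nearest on the low side, with a ratio of 0.83, 1.19, 0.70 and 0.60 in C and 0.19, 0.10, 0.42 and 0.21 in OH (difference -0.60, adjusted p = 0.099). The groups did not overlap, and the difference was -0.10 in Cy5 and 0.51 in Cy3. Mapk3, the kinase ERK1, had a ratio of 0.23, 0.50, 0.03 and 0.27 in C and 0.65, 0.63, 0.48 and 0.53 in OH (difference 0.31, adjusted p = 0.26; Cy5 0.01, Cy3 -0.29). Mgam, the brush border maltase, came nearest on the high side, with -0.21, -0.15, -0.54 and -0.49 in C and 0.50, 1.19, 0.36 and 0.52 in OH (difference 0.99, adjusted p = 0.108). Its Cy5 level differed by 0.18 and its Cy3 level by -0.80. In these 3 genes the Cy3 difference was larger in size than the Cy5 difference.

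Lct, the lactase of milk digestion, varied more between rats than between groups, with a ratio of -1.32, -1.17, -0.20 and -0.91 in C and 0.06, 1.55, -1.86 and -0.62 in OH (difference 0.69, SE 0.50, adjusted p = 0.71). The peptidases did so too: Anpep differed by 0.06 (SE 0.65), Enpep by -0.13 (SE 0.76) and Dpp4 by 0.26 (SE 0.27). Ghrl, the precursor of ghrelin and obestatin, differed by 0.30 (SE 0.39, adjusted p = 0.89) and Mboat4, which acylates ghrelin, by -0.23 (SE 0.33). The receptor genes Gpr39 and Glp1r differed by 0.23 (SE 0.16) and 0.16 (SE 0.17). Of the glycosylases of base excision repair, Ogg1 differed by -0.30 (SE 0.15, adjusted p = 0.53) and Mpg by 0.095 (SE 0.15), and Mki67, a marker of dividing cells, differed by -0.14 (SE 0.19). The standard errors of these genes leave room for differences of either sign in most of them. Ptgs2 (cyclooxygenase) and Ghsr (the ghrelin receptor) were not well above background on any of the 8 arrays and were not tested.

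Gene lists by function and cell type are described by counts and medians beside those of all 14550 genes, each with the probe brightest in Cy5. Of all genes, 31 passed as higher and 3 as lower in the ratio with p-values adjusted over all 21192 probes, 47.1% were higher in OH, and the median difference was -0.02. No member of any list passed in the ratio. Among the lists of functions, the highest medians were in lists of the absorbing epithelium, but not all of its lists were high. Sugar, amino acid and peptide transport (10 of 14 higher) had a ratio median of 0.11, and bile acid transport and signalling (4 of 7) one of 0.02. Of 17 brush border saccharidases and peptidases 15 were higher in OH, with a median difference of 0.44 in the ratio, 0.48 in Cy5 and 0.04 in Cy3. Of 19 genes of fat absorption and lipoprotein assembly 18 were higher, with medians of 0.28, 0.15 and -0.11, and of 11 genes of the microvillus cytoskeleton 10 were higher, with 0.38, 0.18 and 0.09. Of 10 genes of calcium and iron absorption 9 were higher, with medians of 0.46, 0.42 and 0.07. Suckling-stage enterocyte genes (11 of 13 higher, ratio median 0.30) and weaning-stage genes (6 of 8, 0.16) had positive medians too, but that of the weaning-stage genes was -0.11 without OH replicate 2 and -0.17 without C replicate 4.

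**Figure D4:**
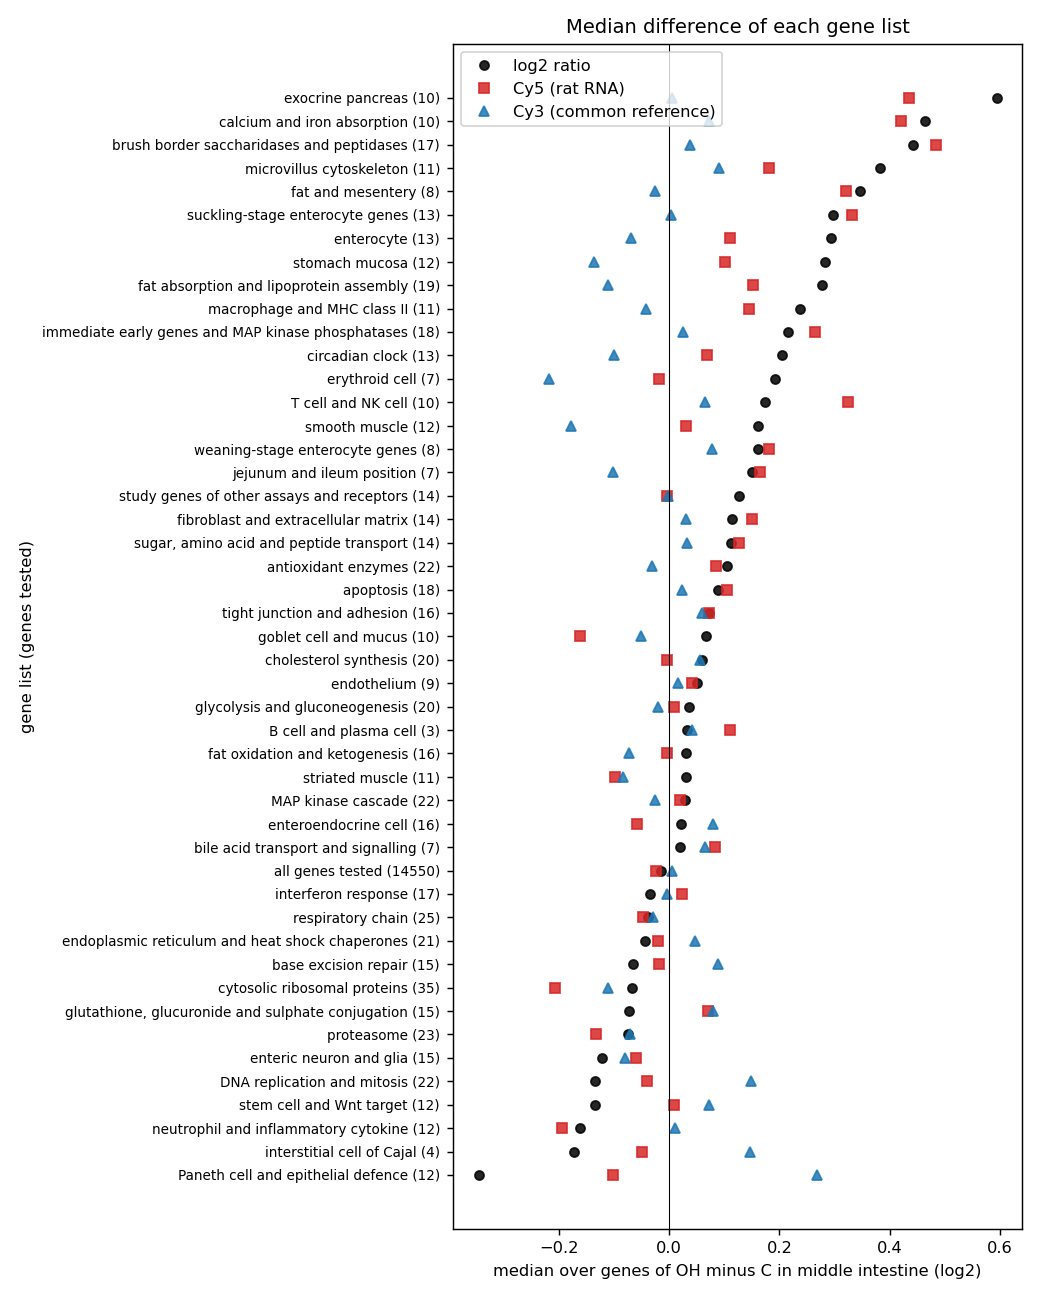
Median difference between OH and C (log2) over the genes of each list, in the log2 ratio (black circles), Cy5 (red squares) and Cy3 (blue triangles), with the number of genes tested in brackets. Exocrine pancreas (0.59), calcium and iron absorption (0.46) and the brush border (0.44) have the highest medians of the ratio, Paneth cell and epithelial defence the lowest (-0.35), and all genes tested lie at -0.02.

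The spread between rats was larger than these medians. The mean log2 ratio of the brush border list was 0.04, 0.24, 0.62 and -0.31 on the C arrays and 0.98, 1.75, -0.33 and -0.07 on the OH arrays. OH replicates 1 and 2 were above every C array, and OH replicates 3 and 4 were within or under the range of C. The fat absorption list showed the same, with -0.90, -0.50, -0.02 and -0.42 in C and 0.37, 0.62, -1.25 and -0.30 in OH. Without OH replicate 2 the medians were 0.07 for the brush border list, 0.01 for the microvillus list and -0.00 for fat absorption, and without OH replicate 1 the median for calcium and iron absorption was 0.09. Smooth muscle genes were higher in OH in 9 of 12, with a median of 0.16, but among the arrays of OH they ran against the enterocyte lists, with list means of -0.52, -0.77, -0.01 and -0.12 in OH and -0.22, -0.37, -1.15 and -0.25 in C, so the OH arrays with high brush border genes had the lower smooth muscle genes. The part of tissue composition in these lists was not tested.

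Single members show the same split. Apob, the protein core of chylomicrons, had a ratio of -1.45, -1.57, -1.53 and -0.59 in C and 0.76, 0.82, -2.54 and -0.79 in OH (difference 0.85, SE 0.54, adjusted p = 0.66). Slc5a1, the sodium and glucose transporter, had -0.40, -0.08, 0.54 and -0.22 in C and 1.56, 2.56, -0.04 and 0.56 in OH (difference 1.20, SE 0.41, adjusted p = 0.26; Cy5 0.46, Cy3 -0.73). Slc11a2, which takes up iron, had -1.02, -1.06, -1.15 and -0.25 in C and 1.26, -0.68, -1.07 and 0.16 in OH (difference 0.79, SE 0.38). In all 3 genes the OH arrays reached from within the range of C, or below it, to well above it. Mep1a, a brush border metalloprotease, differed by 0.67 (SE 0.33), Ass1, of the arginine synthesis of suckling enterocytes, by 0.56 (SE 0.19, adjusted p = 0.25), and Slc9a3r1, a scaffold of microvilli, by 0.60 (SE 0.17, adjusted p = 0.16; Cy5 0.18, Cy3 -0.40).

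Immediate early genes and MAP kinase phosphatases, which cells switch on within minutes of a stimulus, formed a list whose arrays did not overlap. Among the other lists this held only for cytosolic ribosomal proteins and stomach mucosa. Of 18 genes 16 were higher in OH, with a median difference of 0.22 in the ratio, 0.26 in Cy5 and 0.02 in Cy3. All OH arrays lay above all C arrays at 2 of these genes, as at 437 of all 14550 genes. The list mean was 0.15, 0.17, 0.14 and 0.22 on the C arrays and 0.61, 0.50, 0.40 and 0.36 on the OH arrays, and the median stayed between 0.17 and 0.36 when each array was left out. Egr1, a zinc finger transcription factor, had -0.04, -0.63, -0.98 and 0.01 in C and 0.07, 0.43, 1.34 and 0.13 in OH (difference 0.90, SE 0.51, adjusted p = 0.59; Cy5 0.96, Cy3 0.07). All OH arrays were above all C arrays for Egr1, though the nearest were 0.01 and 0.07. Fosl2, of the AP-1 family, differed by 0.52 (SE 0.21, adjusted p = 0.38; Cy5 0.20, Cy3 -0.30), and Dusp6, a phosphatase of ERK, by 0.42 (SE 0.22; Cy5 0.38, Cy3 -0.02). Of the list, Egr3 and Fosb passed in Cy5 as lower in OH (-1.32 and -1.09), with Cy3 differences of -0.91 and -1.16 and ratio differences of -0.39 and 0.08.

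In the MAP kinase cascade, which carries signals of growth and stress, 12 of 22 genes were higher, with a median of 0.03 in the ratio and 0.02 in Cy5. Besides Map2k3, Map2k7, a kinase above JNK, had -0.31, -0.09, -1.08 and 0.05 in C and 0.55, 0.33, 0.79 and 1.00 in OH (difference 1.03, adjusted p = 0.10), with a Cy5 difference of -0.17 and a Cy3 difference of -1.18. The stress kinase Map3k5 differed by 0.48 (Cy5 -0.14, Cy3 -0.61). All OH arrays lay above all C arrays in the ratio at 2 of the 22 genes and below them at 2. Of all 14550 genes this held at 437 and 321. Map2k3, Map2k7 and Map3k5 were among those of the list, with Cy5 differences between -0.17 and -0.10. Of 18 apoptosis genes 16 were higher, with a median of 0.09. Apaf1, the scaffold of the apoptosome, differed by 0.64 (adjusted p = 0.10; Cy5 0.10, Cy3 -0.53), and Bax, which opens the mitochondrial membrane, by -0.85 (adjusted p = 0.14; Cy5 0.23, Cy3 1.09).

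Of 22 genes of DNA replication and mitosis 19 were lower in OH, with a median of -0.13 in the ratio, -0.04 in Cy5 and 0.15 in Cy3. The list mean was 0.39, 0.33, 0.30 and 0.15 in C and 0.02, 0.16, 0.33 and 0.17 in OH and overlapped. Ccnb1, the cyclin of mitosis, differed by -0.47 (SE 0.19, adjusted p = 0.38), Bub1, a checkpoint kinase, by -0.38 (SE 0.14), and Birc5, survivin, by 0.39 (SE 0.18; Cy5 -0.26, Cy3 -0.64). Stem cell and Wnt target genes were lower in 8 of 12, with a median of -0.13, among which Axin2 differed by 0.76 (SE 0.25; Cy5 0.03, Cy3 -0.71). Of 15 genes of base excision repair 10 were lower, with a median of -0.07, and Mutyh, which removes adenine opposite oxidized guanine, differed by 0.33 (SE 0.14). Antioxidant enzymes were higher in 13 of 22, with a median of 0.11. Among them Gsr, glutathione reductase, differed by 0.64 (adjusted p = 0.16; Cy5 -0.22, Cy3 -0.85), catalase (Cat) by 0.64 (Cy5 0.25, Cy3 -0.37), and Gclm, of glutathione synthesis, by 0.67 (Cy5 0.62, Cy3 -0.03; above background on 1 C and 2 OH arrays).

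Cytosolic ribosomal proteins differed little but with a narrow spread. Of 35 genes 27 were lower in OH, with a median of -0.07 in the ratio, -0.21 in Cy5 and -0.11 in Cy3. The list mean was 0.08, 0.08, 0.09 and 0.10 in C and -0.00, 0.02, 0.02 and 0.05 in OH, and the OH arrays lay below the C arrays at 6 of the genes and above them at 1, where of all 14550 genes they lay below at 321 and above at 437. Rpl14 had 0.45, 0.36, 0.25 and 0.33 in C and 0.02, -0.12, 0.12 and -0.01 in OH (difference -0.35, SE 0.08, adjusted p = 0.098; Cy5 -0.28, Cy3 0.08), Rpl7 differed by -0.225 and Rpl7a by 0.25 (Cy5 -0.08, Cy3 -0.31). The median was -0.04 with normexp background correction and -0.09 with quantile normalization. Proteasome genes were lower in 17 of 23, with a median of -0.07 in the ratio and -0.13 in Cy5. Among other single genes, Nr1d2, a repressor of the circadian clock, differed by 1.43 (SE 0.36, adjusted p = 0.12; Cy5 0.38, Cy3 -1.03), and Marveld2, of tricellular junctions, by 0.87 (SE 0.21, adjusted p = 0.10; Cy5 0.44, Cy3 -0.41).

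**Figure D5:**
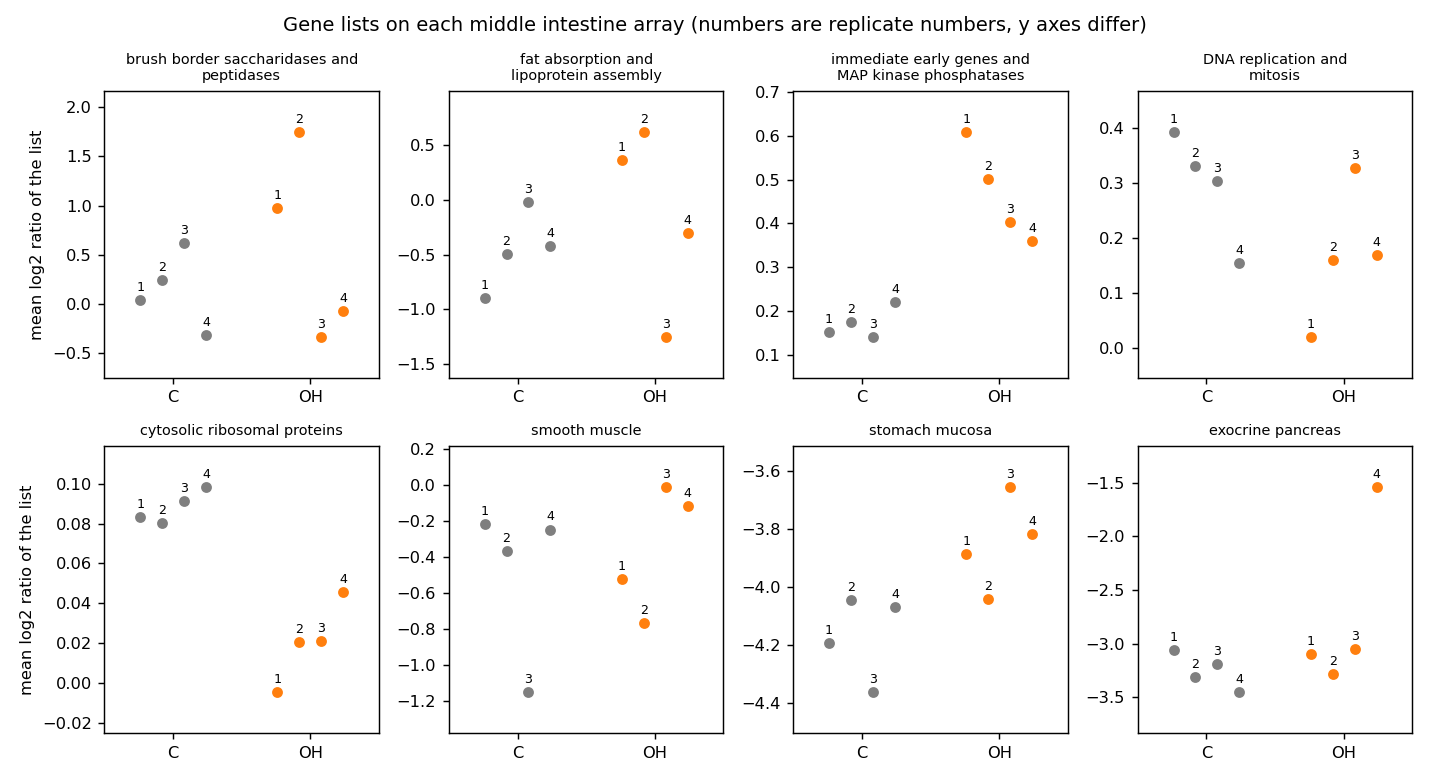
Mean log2 ratio of the genes of 8 lists on each of the 4 C and 4 OH middle intestine arrays; points are arrays with their replicate numbers, and the y axes differ between panels. OH replicates 1 and 2 are high in the brush border and fat absorption lists and low in smooth muscle, and the arrays of the groups do not overlap in the immediate early list (0.14 to 0.22 against 0.36 to 0.61) and in that of ribosomal proteins.

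Markers of other cells and tissues were measured beside these lists. Paneth cell and epithelial defence genes had the lowest median, -0.35 in the ratio, -0.10 in Cy5 and 0.27 in Cy3, with 8 of 12 lower. The ratio median was -0.09 with quantile normalization and between -0.55 and -0.16 when each array was left out. The alpha-defensin Defa7 had -1.52, -0.77, -0.85 and -1.86 in C and -1.92, -2.32, -1.75 and -2.97 in OH (difference -0.99, adjusted p = 0.21), and in Cy5 it passed as lower (-1.30, adjusted p = 0.032; Cy3 -0.30). Lyz2, lysozyme, differed by -0.48 (SE 0.32). Of the neutrophil and cytokine list 12 of 20 genes could be tested, of which 5 were higher and 7 lower in OH. Their median was -0.16, with differences from -0.73 to 0.09. Mpo, myeloperoxidase, differed by -0.72 (SE 0.32). S100a9 differed by -0.73, with C replicate 1 at -2.72 and the other arrays between -5.35 and -4.41. Of 11 macrophage and MHC class II genes 8 were higher, with a median of 0.24, and Cd74, the invariant chain, differed by 0.595 (SE 0.31).

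Stomach mucosa genes were higher in OH in 11 of 12, with a median of 0.28 in the ratio, 0.10 in Cy5 and -0.14 in Cy3, and OH lay above C at 4 of them, as at 437 of all 14550 genes. Gkn1, a gastrokine, had -4.75, -4.64, -5.09 and -4.63 in C and -4.17, -4.38, -4.04 and -3.85 in OH (difference 0.67, SE 0.22, adjusted p = 0.26; Cy5 0.48). Atp4a, of the acid pump, differed by 0.475 (Cy5 0.29) and the trefoil peptide Tff1 by 0.49 (Cy5 0.02, Cy3 -0.45). The list mean was -4.19, -4.05, -4.36 and -4.07 in C and -3.89, -4.04, -3.66 and -3.82 in OH, so the groups did not overlap for this list either, by a narrow margin. Exocrine pancreas genes had a median of 0.59, with list means of -3.06, -3.31, -3.19 and -3.45 in C and -3.09, -3.28, -3.05 and -1.54 in OH, so OH replicate 4 stood apart. The trypsinogen gene Prss1 had -1.33, -3.62, -2.70 and -4.27 in C and -1.30, -2.52, -3.55 and 0.08 in OH (difference 1.16, SE 0.70). The median of the pancreas list was 0.20 without OH replicate 4 and 0.18 with normexp background correction.

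The response in middle intestine was set against that in stomach. Arrays of both tissues were fitted as independent, although both may have come from the same rats. Tested as a contrast, the intestine response minus the stomach response gave 0 probes (0%) in limma, with a smallest adjusted p of 0.40, and 1242 at an unadjusted p of 0.05 (5.86%), so no probe was shown to respond in the intestine in another way than in the stomach. In stomach 0 probes passed in the ratio, with a smallest adjusted p of 0.054. Of the 71 probes higher in the intestine, 62 were higher in OH in stomach too, with a median of 0.23, where 51.2% of all probes were. The Cy3 level of 69 of the 71 was lower on the OH stomach slide, with a median of -0.50, where 53.8% of all probes were, and 61 passed. Across all probes the Cy3 differences of the intestine slides and of the stomach slides had a Pearson's r of 0.73, both being differences between slides scanned on the OH day and on the C day. Kiaa1671 differed in stomach by 0.06 in the ratio and -1.13 in Cy3, Foxo4 by 0.12 and -0.88, and Net1 by 0.09 and -0.61, so Cy3 was lower on the OH stomach slide for each of them. Chmp4bl1 at the printed probe differed there by -0.48 in the ratio and -0.09 in Cy3.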

How the data were processed

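RNA was hybridized to two-colour Agilent SurePrint G3 Rat GE arrays, and the authors extracted the spots with Feature Extraction (10.10.1.1 per the file headers, 10.7.3.1 per the labels), which subtracted background and normalized the dyes within each array (linear and Lowess). The deposited processed intensity of each channel was used as given. The authors' log10 ratio table, within 0.005 of the scanner's log10 ratios, served as an alternative. Control and outlier spots were left out and the spots of a probe averaged. Of 30367 probes, 21192 were kept, those whose Cy5 signal passed the scanner's background flag on each of the 4 arrays of any group, with 3 or more values per group, so a probe can have been kept through the group where it was bright. In limma 3.58.1 (R 4.3.3), group means were fitted to the log2 ratios, Cy5 and Cy3 of all 16 arrays, with Benjamini-Hochberg adjustment over the probes kept. The scripts were tested on simulated data. The ratio and Cy5 fits share data, and dye normalization had already mixed the channels. Gene symbols came from the array design, updated through RefSeq accessions for 18438 probes, and 95.2% of 13214 probes lay on the RefSeq strand of their gene. Same-numbered C and OH arrays deviated together with r of 0.09, -0.26, -0.40 and 0.51, so replicate numbers did not pair them. For same-numbered intestine and stomach arrays r was 0.14, 0.18, 0.06 and 0.25 in C and -0.12, 0.20, 0.02 and 0.32 in OH. No pairing by rat was fitted. The litters of the rats are not given in the labels. By the methods each treatment had its own litters, so rats of a group can share a litter. The p-values of the ratio and of Cy5 measure the spread between arrays of different rats within groups, stomach included. Those of Cy3 measure the spread between arrays of the same pool, not between rats.

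Genes were named by a rule: the 10 largest differences of the ratio in each direction among probes with a symbol that passed and did not overlap, the 10 largest in each direction that passed in the ratio and Cy5, the 5 largest in each direction in Cy5, the genes of the study's other assays and its receptors, and up to 4 members of each list with the smallest p. The genes compared by probe position and the probes printed were chosen after their values were seen. The members and lists were chosen with earlier results of these data known. Alternatives were other background corrections, normalizations, filters, array sets and fits, and leaving out each array. Some genes that the rule named are not reported here.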

Additional observations from a re-analysis of the deposited data

Results flagged for a closer look

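Of 262 groups of 4 arrays looked at, 17 held an array whose gap to the nearest of the others, divided by the whole range, exceeded Dixon's 95% critical value, and chance gives about 1 in 20 such groups. All values are log2 ratios.

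Among single genes, Foxo4 was at -1.33 on C replicate 4 (the other arrays of the group between -2.09 and -1.99) and at -0.77 on OH replicate 3 (others -0.15 to -0.08). OH replicate 3 was also apart for Tcp11, at -0.42 (others -0.76 to -0.71), and for Nap1l3, at -1.21 (others -2.18 to -2.01). C replicate 4 was apart for Lin9, at -0.72 (others 0.21 to 0.29), for Apob, at -0.59 (others -1.57 to -1.45), for Slc11a2, at -0.25 (others -1.15 to -1.02), and for Birc5, at 0.28 (others 0.62 to 0.69). Dpp4 was at 2.34 on OH replicate 2 (others 0.96 to 1.1).

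Among list means, C replicate 3 was apart for the microvillus cytoskeleton, at 0.0931 (others -0.40 to -0.38), for glutathione, glucuronide and sulphate conjugation, at -0.41 (others -1.26 to -1.16), and for smooth muscle, at -1.15 (others -0.37 to -0.22). C replicate 4 was apart for tight junction and adhesion genes, at 0.43 (others 0.64 to 0.67), and for endothelium, at -0.44 (others -1.03 to -0.94). C replicate 1 was apart for neutrophil and inflammatory cytokine genes, at -0.97 (others -1.67 to -1.58). OH replicate 4 was apart for endothelium, at -0.37 (others -0.95 to -0.91), and for exocrine pancreas, at -1.54 (others -3.28 to -3.05).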

How the results depend on the processing

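The 78 probes that passed in the ratio became 121 with quantile normalization, 1378 with no filter on dim probes, 1 with only the 8 intestine arrays, 936 (616 higher, 320 lower) by the methods' ANOVA and Tukey's test, which held all 78, 2213 at an unadjusted p of 0.05, and 7 when 1 probe per gene was fitted and adjusted alone. With only the 3′ probe of genes with several probes, chosen after seeing the data, 3 passed. Leaving out each array gave 12 to 42, and 14 without OH replicate 2. The 592 probes in Cy5 became 32 with only the intestine arrays, 2958 unadjusted, 312 with 1 probe per gene, 108 without scaling, 268 (52 higher, 216 lower) with quantile normalization and 8 before dye normalization; leaving out each array gave 244 to 1036, the latter (113 higher, 923 lower) without OH replicate 3. The 12867 in Cy3 became 6478 without scaling (3938 higher, 2540 lower), 13779 with quantile normalization (7819 higher, 5960 lower) and 17086 before dye normalization (4762 higher, 12324 lower), and leaving out each array gave 11897 to 12591. The 7 probes that passed in the ratio and Cy5 became 0 with only the intestine arrays and 0 before dye normalization, and 0 to 6 with each array left out. The 71 with Cy3 passed in the opposite direction became 12 to 39. The difference between tissues gave 1242 unadjusted and 0 to 0 with each array left out. The cause of these changes was not tested.

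With the replicate block, which the numbers do not justify since they did not pair the arrays, 0 probes passed in the ratio, 244 in Cy5, 0 in both and 1 in the difference between tissues.

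The ratio difference turned sign with normexp for Tas2r116 (-0.0927), Krt78 (0.0875) and Ston1 (-0.0664) and with quantile normalization for Adam34 (0.0497). Leaving out each array turned it for Adam34 (-0.36 to 0.19), Anpep (-0.67 to 0.55), Dpp4 (-0.074 to 0.39), Enpep (-1.02 to 0.33), Ghrl (-0.11 to 0.60), Ston1 (-0.11 to 0.33) and Tas2r116 (-0.0759 to 0.35). Of 375 comparisons of named genes that passed, 204 still did. Precision is limited by 4 arrays a group and by probes near background.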
